A study of Mus musculus with 34 samples.

Results

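The cholesterol synthesis and SREBP2 genes are 28 mouse genes picked by symbol for their place in one pathway. There are 7 enzymes from acetyl-CoA to farnesyl diphosphate (Acat2, Hmgcs1, Mvk, Pmvk, Mvd, Idi1 and Fdps), 3 from there to lanosterol (Fdft1, Sqle and Lss) and 8 from lanosterol to cholesterol (Cyp51, Tm7sf2, Msmo1, Nsdhl, Hsd17b7, Ebp, Sc5d and Dhcr7). The others are Ggps1 on the isoprenoid side branch, Srebf2 with its controllers Scap, Insig1 and Insig2, the sterol handling genes Stard4, Npc1 and Mylip, and the esterifying enzymes Soat1 and Soat2. All 28 symbols were found in both deposited count tables, which list 24951 gene symbols for hepatocytes and 26233 for liver macrophages, and the rule itself uses no measured value. The libraries come from livers of 19 mice on a mixed B6;129P background, sorted into hepatocytes (18 libraries) and F4/80+ CD45+ macrophages (16 libraries), and 15 mice gave both. Knockout mice were Opn-CreERt2 Yapfl/fl Tazfl/fl, in which an osteopontin-driven, tamoxifen-inducible Cre removes Yap and Taz from bile duct cells. Control mice were Yap fl/fl Taz fl/fl without Cre. Both genotypes carry the floxed alleles and both received tamoxifen (1.6 mg/kg on 5 days from 7 to 8 weeks of age) and 3 weeks of washout, and some then received the liver toxin carbon tetrachloride (CCl4, 1 ml/kg) 48 hours before collection. Hepatocytes were obtained from 4 knockout mice after CCl4, 5 knockout mice without CCl4, 3 control mice after CCl4 and 6 control mice without CCl4, and macrophages from 4 mice of each of these kinds. The deletion itself lies in bile duct cells and is not checked by levels in hepatocytes or macrophages.

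Total counts ran from 931496 to 7535053 per hepatocyte library and from 596380 to 5128587 per macrophage library. Summed hepatocyte markers (Alb, Ahsg, Fgb, Hpx, Cps1 and Apoa2) took between 63066 and 98269 CPM (counts scaled to a common library total) of each hepatocyte library. Summed Kupffer cell markers (Clec4f, Timd4, Vsig4, Cd5l, Marco, Adgre1 and Csf1r) took between 4665 and 18109 CPM of each macrophage library. Each fraction also held counts of the other: hepatocyte markers reached 388 to 32259 CPM in macrophage libraries, and Kupffer cell markers 5.26 to 958 CPM in hepatocyte libraries. Each marker sum was thus higher in its own fraction than in the other. Still, the hepatocyte sum exceeded the Kupffer cell sum in every macrophage library of uninjured controls (13289.7 to 15212 against 9958 to 13120.4 CPM). After CCl4 it did so in macrophages of knockout mice 13 and 14 and control mouse 12 (32259, 26886 and 16566 against 4665, 5088 and 6146 CPM). The file numbers of the libraries fall into an earlier series (number 14 or lower) and a later one (25 or higher). Every knockout library belongs to the later series, while 5 of 9 control hepatocyte libraries and 2 of 8 control macrophage libraries belong to the earlier. Genotype and series are thus partly confounded, and depth goes with the series. Hepatocyte libraries held 4910846 to 7535053 counts in the earlier series and 931496 to 2411576 in the later. Macrophage libraries held 3021722 and 5128587 counts in the earlier series and 596380 to 2539224 in the later. For 2 libraries of control mice after CCl4, hepatocytes of mouse 15 and macrophages of mouse 11, the labels disagree on genotype. They were kept with the controls, and values that depend on them are given. Levels below are CPM scaled by TMM, a normalization for library composition, within each cell type. In these bulk libraries, fewer cells of a type and less RNA per cell cannot be told apart.

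As background, hepatocytes build cholesterol from acetyl-CoA through mevalonate, the isoprenoid diphosphates, squalene and lanosterol. SREBP2, the protein of Srebf2, is made as a membrane-bound precursor in the endoplasmic reticulum. When sterols are low, the escort protein SCAP carries it to the Golgi, where proteases free a fragment that enters the nucleus and switches on the genes of the pathway. When sterols are high, the INSIG proteins hold SCAP back. Liver is a main site of this synthesis, and macrophages take up much of their cholesterol with the cells and lipoproteins they clear, storing the excess as esters.

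SREBP proteins act at sterol regulatory elements, often beside a CCAAT box, which the factor NF-Y binds. These elements are the part of the promoter that the pathway's regulator is known to use. Upstream sequences are shown for 7 genes that changed in hepatocytes, not the 7 of largest change. They come from RefSeq on GRCm38.p6, cover 110 bases, read 5′ to 3′ on the strand of the gene, and carry in capitals each CCAAT and each CACNCCAC (N is any base) found on either strand. The positions are chr13:119690113-119690222 (Hmgcs1, plus strand), chr13:8885496-8885605 (Idi1, plus), chr10:76531490-76531599 (Lss, plus), chr8:64733629-64733738 (Msmo1, minus), chr19:6067851-6067960 (Tm7sf2, minus), chr5:28071302-28071411 (Insig1, plus) and chr9:110333178-110333287 (Scap, plus). All 7 lie upstream of the RefSeq start of the gene. In the GENCODE annotation, whose outermost starts differ, the stretches of Msmo1 and Tm7sf2 lie within the gene, and those of Idi1, Lss and Insig1 reach into it.
Hmgcs1: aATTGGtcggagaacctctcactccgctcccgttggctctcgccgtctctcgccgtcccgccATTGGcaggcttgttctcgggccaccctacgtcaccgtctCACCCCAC
Idi1: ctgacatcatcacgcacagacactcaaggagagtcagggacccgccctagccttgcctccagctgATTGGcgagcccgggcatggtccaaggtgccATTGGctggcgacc
Lss: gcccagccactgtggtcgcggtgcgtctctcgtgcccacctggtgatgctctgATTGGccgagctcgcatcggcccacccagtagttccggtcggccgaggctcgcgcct
Msmo1: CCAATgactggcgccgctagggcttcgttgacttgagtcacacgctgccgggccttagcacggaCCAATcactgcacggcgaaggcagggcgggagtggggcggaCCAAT
Tm7sf2: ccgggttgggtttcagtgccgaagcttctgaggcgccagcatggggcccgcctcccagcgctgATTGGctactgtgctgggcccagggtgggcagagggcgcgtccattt
Insig1: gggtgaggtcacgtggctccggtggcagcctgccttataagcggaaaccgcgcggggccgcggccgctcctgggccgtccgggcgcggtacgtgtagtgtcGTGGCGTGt
Scap: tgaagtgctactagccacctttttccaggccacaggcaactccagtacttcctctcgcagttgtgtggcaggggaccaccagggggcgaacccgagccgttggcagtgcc

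The Hmgcs1 stretch holds 2 CCAAT boxes, read as ATTGG, and ends in TCACCCCAC, which matches the 9-letter form TCACNCCAC of the sterol regulatory element. Msmo1 has 3 CCAAT boxes in 110 bases, Idi1 has 2, and Lss and Tm7sf2 have 1 each. The Insig1 stretch holds GTGGCGTG, the reverse complement form of CACNCCAC, close to the start, and the Scap stretch holds neither motif. RefSeq promoters were matched for 22 of the 28 genes; Fdps, Fdft1, Sqle, Stard4, Npc1 and Soat2 were not matched. Over the 250 bases before the start, CCAAT stood in 20 of 22 members (90.9%), all but Acat2 and Scap, against 37.5% of the 27025 genes of the table and 40.6% of the 7397 of them that were tested in hepatocytes. CACNCCAC stood in 3 of 22 (13.6%: Acat2, Hmgcs1 and Insig1), against 6.05% of all genes, and TCACNCCAC, which contains it, in 1 of 22 (4.55%: Hmgcs1), against 1.22% of all genes. A match describes these letters in this window and shows no binding.

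In hepatocytes, the synthesis enzymes fell after CCl4 in both genotypes. All 18 enzymes from Acat2 to Dhcr7 were lower after CCl4 in knockout mice and in control mice, by log2 fold changes of -3.12 to -0.51 in knockouts and -2.78 to -0.95 in controls. Tests were edgeR quasi-likelihood tests with Benjamini-Hochberg adjustment over all 9679 genes tested, called at an adjusted p under 0.05. Of all 28 members, 21 fell and 0 rose in knockout mice, and 21 fell and 1 rose in control mice; 20 fell in both, Srebf2 passed the test in knockouts and not controls, and Scap in controls and not knockouts. Over all tested genes, 13.9% were called in knockout mice (7.02% higher and 6.84% lower) and 27.4% in control mice (13.7% higher and 13.7% lower). The median log2 fold change of the members was -1.64 in knockouts and -1.29 in controls, against -0.02 in knockouts and -0.01 in controls over all tested genes. From acetyl-CoA to farnesyl diphosphate the median log2 fold change was -1.99 in knockouts and -2.14 in controls, from there to lanosterol -2.00 in knockouts and -1.66 in controls, and from lanosterol to cholesterol -1.87 in knockouts and -1.67 in controls. Summed over the 18 enzymes, hepatocytes of knockout mice held 1349.6, 769.6, 1158 and 1132 CPM after CCl4, against 5357, 3506, 5354, 3396 and 2835 CPM without. In control mice the sums were 1085, 1258 and 803 CPM after CCl4, against 2862, 3183, 4429, 3421, 3059.5 and 1450.0 CPM without. All 7 libraries after CCl4 lay below all 11 libraries without it, and the library nearest to them was that of control mouse 19, at 1450.0 CPM. Mouse 19 gave the lowest level among the 6 control hepatocyte libraries without CCl4 for 22 of the 28 members.

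**Figure D1:**
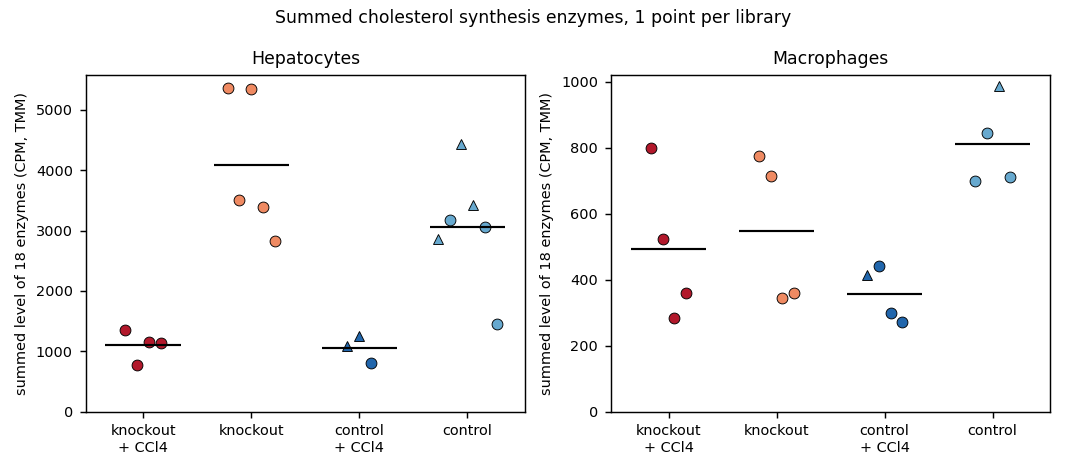
Summed level of the 18 synthesis enzymes per library, in CPM (TMM-scaled within each cell type, axis from 0), for hepatocytes and macrophages of the 8 groups; circles are libraries of the later file series, triangles those of the earlier, and lines are group means. In hepatocytes all libraries after CCl4 (769.6 to 1349.6 CPM in knockouts, 803 to 1258 CPM in controls) lie below all libraries without it.

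The first stretch makes the isoprenoid units. Acat2 joins acetyl-CoA molecules, Hmgcs1 makes HMG-CoA, Mvk, Pmvk and Mvd phosphorylate and decarboxylate mevalonate, Idi1 interconverts the isoprenoid isomers and Fdps joins them to farnesyl diphosphate. Idi1 had 20.5, 9.96, 13.01 and 17.7 CPM in knockout mice after CCl4, against 182, 133, 217, 69.0 and 78.2 CPM without. In control mice Idi1 had 25.1, 14.2 and 10.5 CPM after CCl4, against 33.6 at the lowest, 69.1 at the median and 126 CPM at the highest without. The Idi1 groups did not overlap in either genotype, with log2 fold changes of -3.12 (SE 0.425, adjusted p = 0.000108) in knockouts and -2.15 (SE 0.427, adjusted p = 0.00106) in controls. Pmvk had 24.5, 12.3, 27.0 and 29.8 CPM in knockout mice after CCl4, against 114, 84.5, 74.5, 71.2 and 62.9 CPM without. In control mice Pmvk had 17.9, 23.7 and 18.6 CPM after CCl4, against 19.98 at the lowest, 55.0 at the median and 63.9 CPM at the highest without. For Pmvk the groups were apart in knockouts, and in controls the lowest library without CCl4 fell among those after it. The log2 fold changes were -1.78 (SE 0.283, adjusted p = 0.000253) in knockouts and -1.30 (SE 0.291, adjusted p = 0.00212) in controls. Mvk had 15.9, 17.6, 15.8 and 24.2 CPM in knockout mice after CCl4, against 52.3, 37.2, 50.9, 44.0 and 34.0 CPM without. In control mice Mvk had 11.5, 12.8 and 11.6 CPM after CCl4, against 13.7 at the lowest, 22.3 at the median and 34.2 CPM at the highest without. Mvk fell with no overlap in either genotype, with log2 fold changes of -1.22 (SE 0.236, adjusted p = 0.00154) in knockouts and -0.99 (SE 0.244, adjusted p = 0.00431) in controls. Acat2 had 50.2, 52.8, 46.5 and 57.7 CPM in knockout mice after CCl4, against 191, 153, 139, 106 and 109.7 CPM without. In control mice Acat2 had 44.3, 46.9 and 29.1 CPM after CCl4, against 46.3 at the lowest, 88.0 at the median and 117 CPM at the highest without. Acat2 fell in both genotypes, with log2 fold changes of -1.43 (SE 0.237, adjusted p = 0.00037) in knockouts and -1.08 (SE 0.248, adjusted p = 0.00266) in controls. Hmgcs1, whose upstream stretch above ends in a match to the sterol regulatory element, averaged 124 ± 28.3 CPM after CCl4 and 1041 ± 507 CPM without in knockouts (SD, n = 4 and 5), and 104 ± 36.0 CPM after CCl4 and 565 ± 342 CPM without in controls (n = 3 and 6). The log2 fold changes in knockouts were -3.07 for Hmgcs1, -1.99 for Mvd and -2.38 for Fdps, and in controls -2.44, -2.14 and -2.24 for the same genes, all called. The side branch enzyme Ggps1, which makes geranylgeranyl diphosphate for protein prenylation, was not called, at 0.52 (SE 0.438, adjusted p = 0.491) in knockouts and 0.40 (SE 0.380, adjusted p = 0.481) in controls.

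Squalene synthase (Fdft1) commits farnesyl diphosphate to sterols, squalene epoxidase (Sqle) adds oxygen and lanosterol synthase (Lss) closes the rings. Fdft1 had 18.5, 13.8, 21.4 and 17.4 CPM in knockout mice after CCl4, against 97.9, 68.1, 110.3, 79.2 and 54.4 CPM without. In control mice Fdft1 had 8.11, 15.5 and 11.9 CPM after CCl4, against 19.98 at the lowest, 46.4 at the median and 56.2 CPM at the highest without. All Fdft1 values after CCl4 were below all values without it in both genotypes, with log2 fold changes of -2.21 (SE 0.277, adjusted p = 3.77e-05) in knockouts and -1.86 (SE 0.289, adjusted p = 6.14e-05) in controls. Lss had 45.6, 15.3, 43.7 and 37.3 CPM in knockout mice after CCl4, against 235, 127, 148, 112 and 90.1 CPM without. In control mice Lss had 18.5, 15.4 and 16.1 CPM after CCl4, against 23.1 at the lowest, 42.4 at the median and 64.1 CPM at the highest without. Lss separated in the same way, with log2 fold changes of -2.00 (SE 0.309, adjusted p = 0.000216) in knockouts and -1.36 (SE 0.330, adjusted p = 0.00409) in controls, and its uninjured level was higher in knockouts, as described further on. Sqle averaged 36.4 ± 7.48 CPM after CCl4 and 146 ± 59.0 CPM without in knockouts, and 26.1 ± 8.92 CPM after CCl4 and 83.7 ± 38.4 CPM without in controls (SD), with log2 fold changes of -2.00 in knockouts and -1.66 in controls, both called.

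From lanosterol on, Cyp51 and Msmo1 remove methyl groups with Nsdhl and Hsd17b7, Tm7sf2 and Dhcr7 are reductases, Ebp shifts a ring double bond and Sc5d introduces one. Tm7sf2 had 13.2, 6.13, 13.01 and 6.22 CPM in knockout mice after CCl4, against 33.0, 37.8, 35.8, 24.9 and 38.3 CPM without. In control mice Tm7sf2 had 6.41, 5.44 and 5.95 CPM after CCl4, against 33.1 at the lowest, 36.7 at the median and 46.4 CPM at the highest without. Tm7sf2 fell without overlap in either genotype, with log2 fold changes of -1.86 (SE 0.245, adjusted p = 5.47e-05) in knockouts and -2.69 (SE 0.252, adjusted p = 2.19e-07) in controls, that is 3.64-fold lower in knockouts and 6.44-fold lower in controls. Msmo1 had 83.3, 55.9, 77.1 and 61.9 CPM in knockout mice after CCl4, against 715, 377, 801, 382 and 313 CPM without. In control mice Msmo1 had 60.1, 52.7 and 47.6 CPM after CCl4, against 89.4 at the lowest, 455 at the median and 509 CPM at the highest without. Msmo1 did likewise, with log2 fold changes of -2.90 (SE 0.421, adjusted p = 0.00021) in knockouts and -2.78 (SE 0.459, adjusted p = 0.000205) in controls. The lowest of the 6 uninjured controls for Msmo1 was again mouse 19, and it still lay above the 3 control libraries after CCl4. The remaining 6 genes of this stretch were all called lower: in knockouts from -2.08 (Cyp51) to -0.51 (Ebp), with Nsdhl at -2.02, Dhcr7 at -1.87, Hsd17b7 at -1.86 and Sc5d at -1.09. In controls they ran from -1.93 (Nsdhl) to -0.95 (Ebp), with Cyp51 at -1.89, Dhcr7 at -1.46, Hsd17b7 at -1.07 and Sc5d at -1.01. Ebp, the smallest of these changes in both genotypes, averaged 224 ± 41.7 CPM after CCl4 and 320.3 ± 23.9 CPM without in knockouts, and 203 ± 39.1 CPM after CCl4 and 393 ± 57.1 CPM without in controls. Its call in knockouts (adjusted p = 0.0464) was lost in 7 of 9 fits that left out 1 library, with adjusted p up to 0.149. Over the 28 members, all values after CCl4 lay below all values without it for 20 members in knockouts and for 10 in controls, against 6.38% of all tested genes in knockouts and 11.9% in controls.

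**Figure D2:**
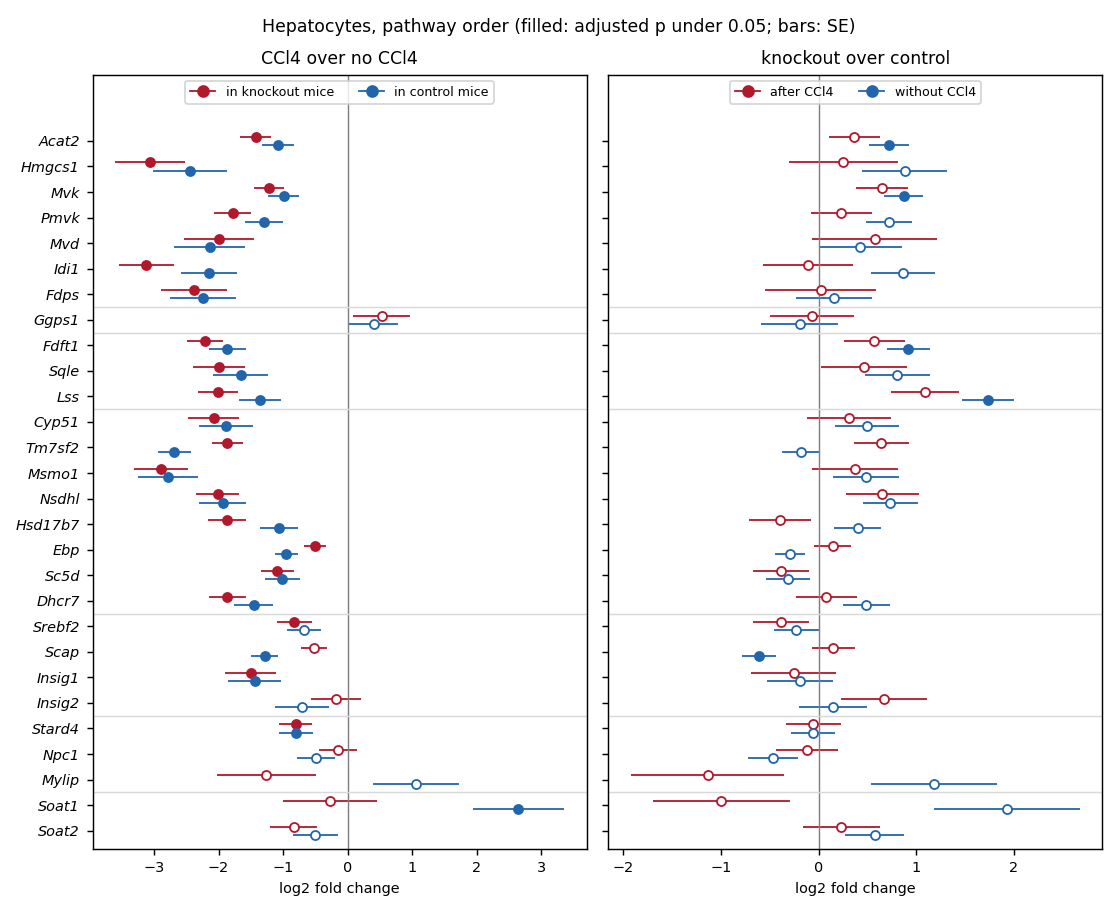
Log2 fold changes in hepatocytes for the 28 members in pathway order, for CCl4 over no CCl4 and for knockout over control; filled points have an adjusted p under 0.05 and bars are standard errors. The 18 enzymes are filled and left of 0 in both CCl4 comparisons, while 5 members are filled for knockout over control without CCl4 and 0 after CCl4.

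Among Srebf2 and the 3 genes that control its protein, Insig1 fell in both genotypes, Scap in controls and Srebf2 in knockouts. Srebf2 had 33.0, 17.6, 20.4 and 19.7 CPM in knockout mice after CCl4, against 42.6, 42.9, 45.1, 36.7 and 34.0 CPM without. In control mice Srebf2 had 33.7, 38.9 and 15.1 CPM after CCl4, against 32.6 at the lowest, 44.4 at the median and 60.0 CPM at the highest without. The Srebf2 groups overlapped in controls and not in knockouts: the log2 fold change was -0.83 (SE 0.269, adjusted p = 0.0439) in knockouts and -0.67 (SE 0.263, adjusted p = 0.0631) in controls. The knockout call was lost in 8 of 9 fits that left out 1 library, with adjusted p up to 0.14. Scap had 61.5, 55.9, 40.0 and 30.8 CPM in knockout mice after CCl4, against 61.9, 76.3, 55.2, 68.2 and 75.7 CPM without. In control mice Scap had 50.3, 41.6 and 34.0 CPM after CCl4, against 91.6 at the lowest, 97.9 at the median and 126 CPM at the highest without. Scap fell in controls, at -1.28 (SE 0.208, adjusted p = 0.000101), with no overlap. In knockouts the difference was -0.53 (SE 0.198, adjusted p = 0.0842). Their uninjured Scap level was called lower than that of controls, a call described further on that was lost without some single libraries. Insig1 had 64.8, 14.5, 27.9 and 21.3 CPM in knockout mice after CCl4, against 89.3, 100.2, 96.7, 79.2 and 89.3 CPM without. In control mice Insig1 had 56.0, 37.6 and 19.97 CPM after CCl4, against 43.1 at the lowest, 100.01 at the median and 177 CPM at the highest without. Insig1, itself a known SREBP2 target, fell in both, with log2 fold changes of -1.50 (SE 0.399, adjusted p = 0.0172) in knockouts and -1.44 (SE 0.411, adjusted p = 0.0138) in controls. In knockouts its groups did not overlap. In controls they did, and in each genotype 2 of 9 fits that left out 1 library lost the call, with adjusted p up to 0.0728 in knockouts and 0.0701 in controls. Insig2 had 146, 153, 219 and 116 CPM in knockout mice after CCl4, against 168, 69.3, 165, 214 and 281 CPM without. In control mice Insig2 had 114, 65.9 and 117 CPM after CCl4, against 55.8 at the lowest, 189 at the median and 222 CPM at the highest without. Insig2, which in liver is under insulin rather than SREBP2 control, was not called in either genotype, with log2 fold changes of -0.18 (SE 0.386, adjusted p = 0.812) in knockouts and -0.71 (SE 0.414, adjusted p = 0.226) in controls. The difference between the genotypes' CCl4 effects (knockout minus control) was 0.76 (SE 0.280, adjusted p = 0.299) for Scap, -0.16 (SE 0.370, adjusted p = 0.94) for Srebf2, -0.06 (SE 0.547, adjusted p = 0.989) for Insig1 and 0.53 (SE 0.559, adjusted p = 0.832) for Insig2.

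**Figure D3:**
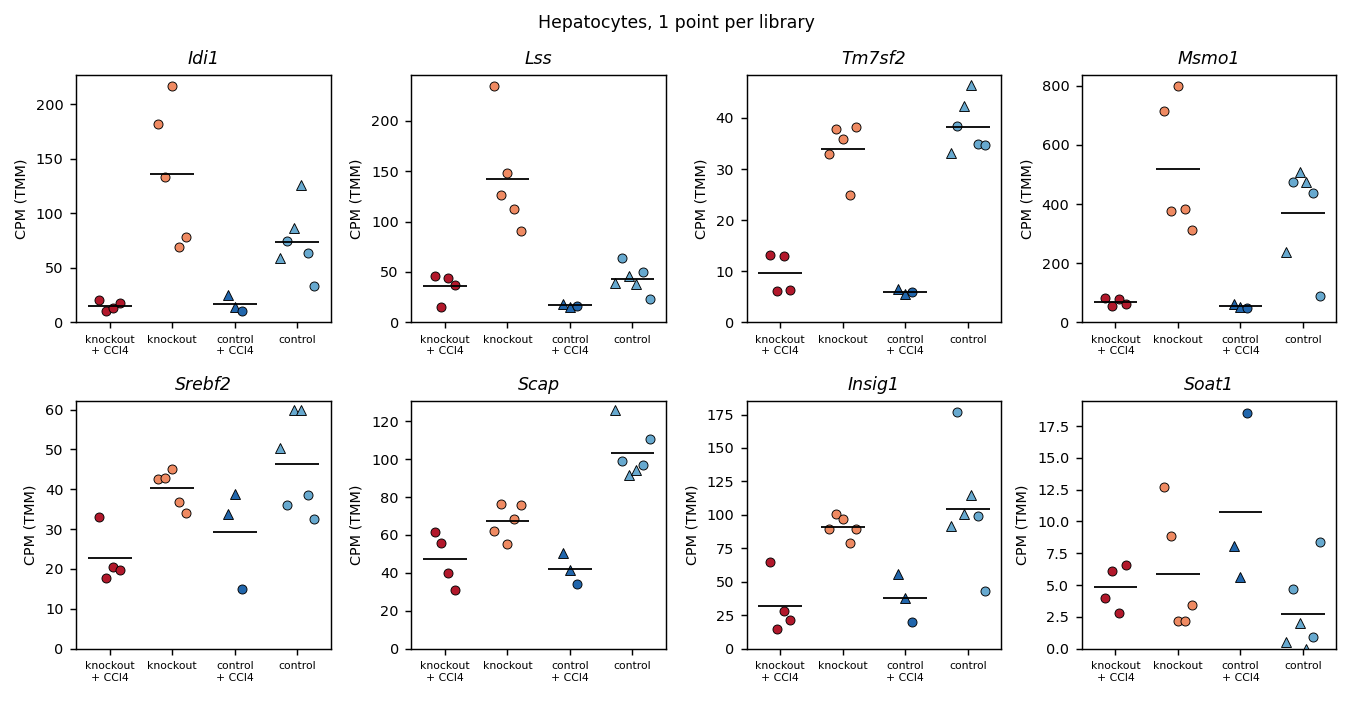
Hepatocyte levels per library, in CPM (TMM-scaled, axes from 0), of Idi1, Lss, Tm7sf2, Msmo1, Srebf2, Scap, Insig1 and Soat1 in the 4 groups; circles are the later file series, triangles the earlier and lines group means. Tm7sf2 lies at 6.13 to 13.2 CPM in knockouts and 5.44 to 6.41 CPM in controls after CCl4, and at 24.9 to 38.3 CPM in knockouts and 33.1 to 46.4 CPM in controls without it.

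Sterol handling genes were less uniform. Stard4 had 76.7, 55.1, 53.0 and 48.8 CPM in knockout mice after CCl4, against 123, 109.7, 121, 79.2 and 76.5 CPM without. In control mice Stard4 had 76.4, 63.1 and 41.7 CPM after CCl4, against 49.4 at the lowest, 112 at the median and 143 CPM at the highest without. Stard4, a sterol carrier of the cytosol that SREBP2 induces, fell in both genotypes, with log2 fold changes of -0.81 (SE 0.254, adjusted p = 0.0377) in knockouts and -0.81 (SE 0.264, adjusted p = 0.0262) in controls. Its groups overlapped in both, and 6 of 9 fits without 1 library lost the call in knockouts (adjusted p up to 0.128) and 5 of 9 in controls (up to 0.138). Mylip had 6.61, 6.13, 2.79 and 4.91 CPM in knockout mice after CCl4, against 23.9, 16.4, 10.7, 4.40 and 4.25 CPM without. In control mice Mylip had 7.54, 11.4 and 16.1 CPM after CCl4, against 0.844 at the lowest, 2.35 at the median and 17.5 CPM at the highest without. Mylip, a ubiquitin ligase induced by LXR that sends lipoprotein receptors to the lysosome, was low throughout and was not called, at -1.26 (SE 0.760, adjusted p = 0.319) in knockouts and 1.06 (SE 0.670, adjusted p = 0.266) in controls. Npc1, which exports cholesterol from lysosomes, was not called either, at -0.15 (SE 0.289, adjusted p = 0.788) in knockouts and -0.49 (SE 0.296, adjusted p = 0.235) in controls. Soat1 had 3.97, 6.13, 2.79 and 6.55 CPM in knockout mice after CCl4, against 12.7, 8.83, 2.15, 2.20 and 3.40 CPM without. In control mice Soat1 had 8.11, 5.60 and 18.6 CPM after CCl4, against 0 at the lowest, 1.47 at the median and 8.41 CPM at the highest without. Soat1, the sterol esterifying enzyme typical of macrophages, was the single member that rose, at 2.64 (SE 0.708, adjusted p = 0.00767) in controls against -0.28 (SE 0.728, adjusted p = 0.848) in knockouts. Soat2, the enzyme of this reaction in hepatocytes, was not called, at -0.84 (SE 0.359, adjusted p = 0.136) in knockouts and -0.50 (SE 0.344, adjusted p = 0.305) in controls. Summed Kupffer cell markers moved with Soat1: they took 85.9 to 222 CPM of total counts in knockouts after CCl4 and 71.3 to 958 CPM without, and 226 to 257 CPM in controls after CCl4 and 5.26 to 118 CPM without. In controls 3 of the 7 markers were called higher after CCl4 (Timd4, Vsig4 and Cd5l), and Clec4f, Timd4, Marco and Adgre1 were at 0 in 1 or 2 uninjured control libraries. With the Kupffer cell marker sum as a covariate, a setting chosen after seeing the data, Soat1 in controls was at 0.10 (adjusted p = 0.952), while 15 of the members called before were called lower in controls and 20 in knockouts, and Ggps1 was called higher in controls, at 1.71 (adjusted p = 0.027).

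Within the later file series alone, which leaves 1 control hepatocyte library after CCl4 (mouse 16, assumed to vary like the other groups) against 3 without, 5 members were called lower in controls: Fdps, Tm7sf2, Ebp, Dhcr7 and Scap. Log2 fold changes there were -2.53 (adjusted p = 0.00962) for Tm7sf2, -2.75 (adjusted p = 0.0993) for Msmo1 and -2.39 (adjusted p = 0.0641) for Idi1. With the series as a term in the fit, 22 were called lower. Knockout libraries all belong to the later series. Fitted there alone, Tm7sf2 was at -1.84 (adjusted p = 0.000374), Msmo1 at -2.87 (adjusted p = 0.00253) and Idi1 at -3.09 (adjusted p = 0.000281) in knockouts. Markers of dividing cells moved with CCl4 too: Mki67 and Top2a together took 380.0 to 717 CPM in knockouts after CCl4 and 4.84 to 113 CPM without, and 482 to 833 CPM after CCl4 and 2.12 to 15.3 CPM without in controls. Among stellate cell markers (Dcn, Lrat, Rgs5, Pdgfrb and Acta2), Pdgfrb and Acta2 were called higher in controls after CCl4 and 0 of 5 in knockouts. Their sums were 134 to 317 CPM after CCl4 and 95.0 to 952 CPM without in knockouts, and 209 to 686 CPM after CCl4 and 9.54 to 292 CPM without in controls, where Acta2, Pdgfrb and Rgs5 were at 0 in 1 or 2 uninjured libraries. Of the 2 biliary markers tested (Krt19 and Sox9), Sox9 was called higher in controls and neither in knockouts. The part of dividing, stellate and biliary cells in the result was not tested.

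Without CCl4, some early and middle enzymes were called higher and Scap lower in knockout than in control hepatocytes. Only the Lss and Mvk calls held whenever single libraries were left out, and none held within the later file series. Lss, Mvk, Fdft1 and Acat2 were called higher and Scap lower, 5 of 28 members (14.3% higher and 3.57% lower). Of the 9679 tested genes 7.87% were called (4.64% higher and 3.23% lower). The median over the members was 0.49, against 0.01 over all tested genes. Lss was at least 90.1 CPM in every uninjured knockout and at most 64.1 CPM in every uninjured control, a 3.33-fold higher level at 1.74 (SE 0.264, adjusted p = 0.000614). For Scap the order was the other way, with at most 76.3 CPM in knockouts and at least 91.6 CPM in controls, at -0.61 (SE 0.174, adjusted p = 0.0368). These were the 2 members whose groups did not overlap, against 1.78% of all tested genes apart with knockouts higher and 1.77% with knockouts lower. Mvk was higher by 0.87 (SE 0.202, adjusted p = 0.0136) on the log2 scale, Fdft1 by 0.92 (SE 0.224, adjusted p = 0.0176) and Acat2 by 0.72 (SE 0.203, adjusted p = 0.0352). All 7 enzymes from acetyl-CoA to farnesyl diphosphate and all 3 to lanosterol had positive values, from 0.16 (Fdps) to 1.74 (Lss), whereas of the 8 later enzymes 5 were positive and 3 negative, from -0.31 (Sc5d) to 0.73 (Nsdhl), and 0 were called. Srebf2 was at -0.23 (SE 0.229, adjusted p = 0.567), Insig1 at -0.19 (SE 0.335, adjusted p = 0.762), Insig2 at 0.15 (SE 0.346, adjusted p = 0.838) and Mylip at 1.18 (SE 0.643, adjusted p = 0.258), none of them called. At an unadjusted p under 0.05, 10 members passed, and the share of all tested genes at that threshold was not counted.

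Of these 5 calls, 3 were lost when single libraries were left out, and all 5 missed the threshold within the later file series. Left out alone, knockout mouse 4 took the number called higher to 2 and the number lower to 0, and each of mice 2, 8 and 19 (controls) and 5, 10 and 20 (knockouts) also ended the Scap call, with adjusted p up to 0.101; Acat2 was not called without mouse 2, 8, 5 or 4, nor Fdft1 without mouse 4. Lss and Mvk were called in all 11 such fits. Within the later file series (5 knockouts and 3 controls) 0 members were called, with Lss at 1.63 (adjusted p = 0.112), Mvk at 1.16 (adjusted p = 0.0721), Fdft1 at 1.08 (adjusted p = 0.123), Acat2 at 0.81 (adjusted p = 0.226) and Scap at -0.61 (adjusted p = 0.298). With the series as a term, Lss and Mvk were called. Kupffer cell markers were also higher in uninjured knockout hepatocyte libraries, 958 and 476 CPM in mice 4 and 5 and 71.3 to 155 CPM in the other knockouts, against 5.26 to 118 CPM in controls, with 5 of 7 markers called higher (Clec4f, Timd4, Vsig4, Cd5l and Marco). Stellate cell markers took 952 and 625 CPM in knockout mice 4 and 5 and 95.0 to 206 CPM in the other knockouts, against 9.54 to 292 CPM in controls. All 5 had positive values, 2 of them at an unadjusted p under 0.05, and 0 were called. Biliary markers (Epcam, Krt7, Krt19 and Sox9) summed to 49.1 to 91.8 CPM in knockouts and 18.4 to 58.5 CPM in controls. Of these, Sox9 took 38.1 to 85.8 CPM in knockouts and 15.9 to 47.9 CPM in controls. The part of stellate and biliary cells in the result was not tested. With the Kupffer cell marker sum as a covariate 0 members were called, with Lss at 1.37 (adjusted p = 0.114), Mvk at 0.79 (adjusted p = 0.291), Fdft1 at 0.99 (adjusted p = 0.209), Acat2 at 0.50 (adjusted p = 0.531) and Scap at -0.55 (adjusted p = 0.375).

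After CCl4, edgeR called 0 of 28 members between knockout and control hepatocytes, against 0.176% of all tested genes (0.124% higher and 0.0517% lower), and DESeq2 and limma voom also called 0. There were 3 members with an unadjusted p under 0.05 (Lss at 1.09, Mvk at 0.65 and Tm7sf2 at 0.64). No share of all tested genes was counted at this unadjusted threshold, here or for the difference between CCl4 effects below. Summed enzymes averaged 1102 ± 242 CPM in knockouts and 1049 ± 229.7 CPM in controls after CCl4 (SD, n = 4 and 3), while without CCl4 they averaged 4089.7 ± 1183 CPM in knockouts and 3068 ± 964 CPM in controls (n = 5 and 6). Mvk was the only member whose knockout values all lay above the controls after CCl4, and Mylip the only one whose values all lay below, against 5.68% of all tested genes above and 5.82% below. The test of the difference between CCl4 effects (knockout minus control) called 0 members by edgeR, DESeq2 and limma voom, against 0.217% of all tested genes (0.0207% higher and 0.196% lower), with 4 at an unadjusted p under 0.05: Tm7sf2 at 0.82 (SE 0.341, adjusted p = 0.381), Scap at 0.76 (SE 0.280, adjusted p = 0.299), Mylip at -2.32 (SE 1.01, adjusted p = 0.432) and Soat1 at -2.92 (SE 1.03, adjusted p = 0.261). A p that misses the threshold does not show that the genotypes respond alike, and 3 control libraries after CCl4 limit this comparison.

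Other genes of the pathway were taken as 5 lists, beside which 6.84% of all tested genes were called lower and 7.02% higher after CCl4 in knockouts, 13.7% lower and 13.7% higher in controls, and 3.23% lower and 4.64% higher in uninjured knockouts. Of 15 further SREBP targets, mostly of fatty acid synthesis, 8 fell and 0 rose after CCl4 in knockout hepatocytes (median -1.14) and 10 fell and 0 rose in controls (median -1.20). In knockouts Acss2, which makes acetyl-CoA from acetate, was at -2.77 (SE 0.368, adjusted p = 7.92e-05), the desaturase Scd1 at -3.02 (SE 0.502, adjusted p = 0.000664) and the retinal reductase Rdh11 at -1.45 (SE 0.270, adjusted p = 0.00114). In controls the glycolytic aldolase Aldoc was at -2.56 (SE 0.320, adjusted p = 5.22e-06), Acss2 at -2.55 (SE 0.3904, adjusted p = 8.00e-05) and malic enzyme Me1 at -1.23 (SE 0.248, adjusted p = 0.000875). Uninjured knockouts differed in 1 of the 15, with Me1 at -0.69 (SE 0.209, adjusted p = 0.047). Of 11 genes for the processing of SREBP and the degradation of its partners, 0 were called in knockouts and 2 fell in controls, among them March6, a ubiquitin ligase of the endoplasmic reticulum, at -0.87 (SE 0.266, adjusted p = 0.0175). Of 7 genes of LXR and its targets, 0 were called in knockouts and 1 fell in controls after CCl4 (the sterol exporter gene Abcg8, at -1.28 (SE 0.271, adjusted p = 0.00136)), and 1 was higher in uninjured knockouts (Abcg1, at 2.31 (SE 0.565, adjusted p = 0.0201), a sterol exporter typical of macrophages, with the Kupffer cell marker values given above; their part was not tested). Of 10 tested genes that use isoprenoids, 0 were called in knockouts, and in controls Fntb, a farnesyltransferase subunit, rose (1.44 (SE 0.383, adjusted p = 0.00746)) and Rabggta, a subunit of the enzyme that adds geranylgeranyl groups, fell (-0.79 (SE 0.263, adjusted p = 0.0292)). Of 5 genes for ester hydrolysis and lysosomal export, 0 were called in either genotype.

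In macrophages, part of the chain fell after CCl4 in control mice, and 0 members were called in knockout mice. Of the 27 members tested (Soat2 was too low), 10 fell and 0 rose in controls, against 13.2% of the 10815 tested genes (6.77% higher and 6.39% lower). The median of the members was -1.12, against -0.03 over all tested genes. They were 8 of the 18 enzymes (Hmgcs1, Idi1, Fdps, Fdft1, Sqle, Tm7sf2, Msmo1 and Hsd17b7), Insig2 and Mylip. In knockouts edgeR, DESeq2 and limma voom called 0, against 0.878% of all tested genes (0.767% higher and 0.111% lower) by edgeR. The median there was -0.33, and 4 members had an unadjusted p under 0.05, a threshold at which all tested genes were not counted. Summed enzymes were 800.2, 524, 283 and 359 CPM in knockouts after CCl4 (mice 13, 14, 17 and 18), against 775, 714, 345 and 360.1 CPM without (mice 4, 5, 20 and 21). In controls they were 415, 443, 299 and 271 CPM after CCl4 (mice 11, 12, 15 and 16), against 699, 844, 986 and 712 CPM without (mice 6, 7, 8 and 9). The control groups did not overlap; the knockout groups did. Hepatocyte markers took 32259, 26886, 3005 and 2711 CPM of total counts in knockouts after CCl4 and 4035 to 14186 CPM without. In controls they took 7842, 16566, 865 and 388 CPM after CCl4 and 13289.7 to 15212 CPM without. Of the 6 markers 0 were called, and none was at 0 in any macrophage library. Within the CCl4 groups, mice 13 and 14 (knockouts) and 11 and 12 (controls) were highest in both marker and enzyme sums. Across CCl4 the sums did not always go together. Control mouse 12 after CCl4 had a higher marker sum (16566 CPM) than every uninjured control, but a lower enzyme sum (443 CPM).

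Msmo1 was the macrophage member of lowest p for CCl4 in controls. Msmo1 had 44.4, 26.7, 21.4 and 14.6 CPM in macrophages of knockout mice after CCl4, against 88.6, 77.9, 27.2 and 45.4 CPM without. In control macrophages Msmo1 had 25.6, 25.5, 25.4 and 9.90 CPM after CCl4, against 94.7, 135, 138 and 102 CPM without. Msmo1 in controls fell without overlap, at -2.42 (SE 0.378, adjusted p = 0.000434), against -1.18 (SE 0.381, adjusted p = 0.19) in knockouts. Insig2 had 59.8, 42.6, 33.7 and 21.3 CPM in macrophages of knockout mice after CCl4, against 21.1, 41.5, 27.2 and 37.7 CPM without. In control macrophages Insig2 had 23.2, 30.7, 15.0 and 15.3 CPM after CCl4, against 64.9, 74.1, 84.0 and 52.8 CPM without. For Insig2 the control groups did not overlap, at -1.73 (SE 0.326, adjusted p = 0.00202), and the knockout value was 0.31 (SE 0.328, adjusted p = 0.779). Mylip had 159, 96.6, 216 and 222 CPM in macrophages of knockout mice after CCl4, against 268, 254, 335 and 258 CPM without. In control macrophages Mylip had 96.1, 167, 163 and 184 CPM after CCl4, against 375, 253, 354 and 335 CPM without. Mylip was below its uninjured level in every library of both genotypes after CCl4, and was called in controls (-1.11 (SE 0.253, adjusted p = 0.00758)) but not in knockouts (-0.68 (SE 0.253, adjusted p = 0.266)). The other 7 called members in controls had log2 fold changes from -2.45 (Hsd17b7, adjusted p = 0.00116) to -1.12 (Hmgcs1), with Fdps at -2.11, Tm7sf2 at -1.92, Idi1 at -1.76, Sqle at -1.57 and Fdft1 at -1.52. All values after CCl4 lay below all values without it for 12 members in controls, against 9.62% of all tested genes, and for 1, Mylip, in knockouts, against 3.19%. With the hepatocyte marker sum as a covariate, a setting chosen after seeing the data, 6 members were called lower and 1 higher in controls. Of the 10 called before, 5 passed: Msmo1 was at -1.82 (adjusted p = 0.0015), Hsd17b7 at -1.89 (adjusted p = 0.00314), Insig2 at -1.26 (adjusted p = 0.0085), Mylip at -1.46 (adjusted p = 0.000436) and Tm7sf2 at -1.77 (adjusted p = 0.0489), while Hmgcs1, Idi1, Fdps, Fdft1 and Sqle were not called. Sc5d was called lower there, at -1.12 (adjusted p = 0.0192), and Pmvk higher, at 1.33 (adjusted p = 0.0483), and in knockouts Msmo1 was called lower, at -1.34 (adjusted p = 0.0205), and Ebp higher, at 0.78 (adjusted p = 0.0494). Without control mouse 8 (no CCl4), 15 or 16 (both after CCl4) the number called lower in controls was 5 each time, without the library of conflicting labels it was 8, and in the later file series alone it was 4. Monocyte markers rose as well, with Ly6c2, Ccr2 and Chil3 all called higher in controls after CCl4 (sums of 301 to 590.1 CPM after and 28.5 to 91.6 CPM without), and 0 of the 3 called in knockouts (164 to 221 CPM after and 137 to 231 CPM without). Of the 7 Kupffer cell markers, Clec4f, Timd4 and Csf1r were called lower in controls after CCl4 (sums of 6146 to 10048 CPM after and 9958 to 13120.4 CPM without) and 0 in knockouts (4665 to 18109 CPM after and 12761 to 16594 CPM without). Endothelial markers (Stab2, Clec4g, Kdr and Lyve1) summed to 149 to 944 CPM after and 783 to 1111 CPM without in controls, with 0 of 4 called and all 4 negative at an unadjusted p under 0.05, and to 409 to 1213 CPM after and 699 to 1436 CPM without in knockouts, with 0 called. Mki67 and Top2a were called higher in both genotypes. The part of these cells in the result was not tested.

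**Figure D4:**
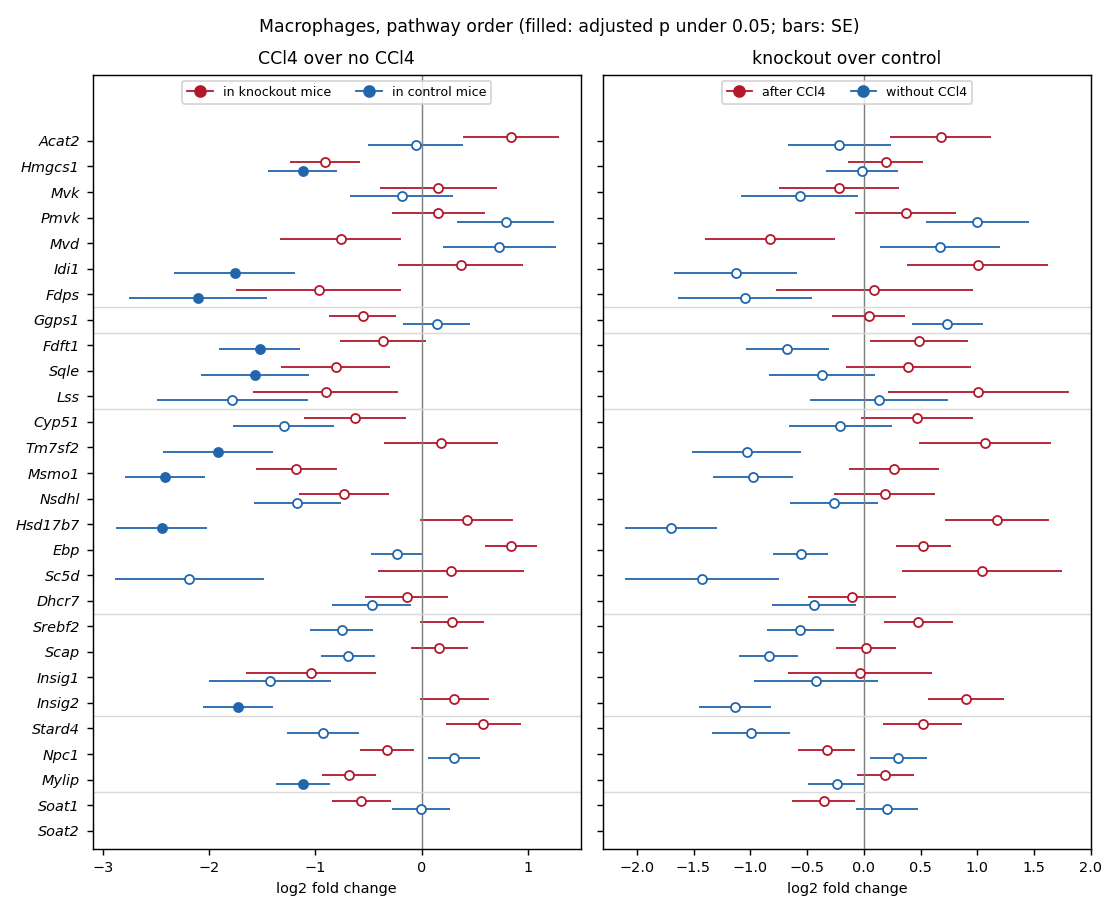
Log2 fold changes in macrophages for the members in pathway order, for CCl4 over no CCl4 and for knockout over control; filled points have an adjusted p under 0.05, bars are standard errors and Soat2 was not tested. In controls 10 members are filled and left of 0 for CCl4, and 0 members are filled in the other 3 comparisons.

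The other regulators, and the mevalonate enzymes Pmvk and Mvd, varied as follows. Srebf2 had 44.4, 36.8, 35.2 and 39.0 CPM in macrophages of knockout mice after CCl4, against 35.8, 25.3, 24.0 and 41.6 CPM without. In control macrophages Srebf2 had 29.6, 24.5, 24.4 and 33.3 CPM after CCl4, against 34.4, 76.4, 51.1 and 26.4 CPM without. Srebf2 was at 0.29 (SE 0.300, adjusted p = 0.778) in knockouts and -0.75 (SE 0.295, adjusted p = 0.0968) in controls. Between genotypes after CCl4 it was not called, at 0.48 (SE 0.302, adjusted p = 0.692) for knockout over control. Scap had 42.5, 41.8, 39.8 and 30.6 CPM in macrophages of knockout mice after CCl4, against 39.8, 37.4, 28.8 and 30.7 CPM without. In control macrophages Scap had 35.1, 50.1, 32.1 and 36.0 CPM after CCl4, against 45.7, 96.9, 51.6 and 52.8 CPM without. Scap was at 0.17 (SE 0.267, adjusted p = 0.872) in knockouts and -0.69 (SE 0.257, adjusted p = 0.0821) in controls. Insig1 had 22.2, 15.9, 15.3 and 6.20 CPM in macrophages of knockout mice after CCl4, against 30.5, 50.6, 8.79 and 28.8 CPM without. In control macrophages Insig1 had 9.46, 19.4, 17.6 and 13.5 CPM after CCl4, against 11.3, 12.6, 63.3 and 67.3 CPM without. Insig1 groups overlapped in both genotypes, at -1.04 (SE 0.611, adjusted p = 0.559) in knockouts and -1.43 (SE 0.577, adjusted p = 0.111) in controls. Pmvk had 37.6, 26.0, 9.18 and 12.9 CPM in macrophages of knockout mice after CCl4, against 28.9, 22.3, 13.6 and 11.5 CPM without. In control macrophages Pmvk had 20.4, 17.4, 16.1 and 11.7 CPM after CCl4, against 7.95, 3.15, 12.4 and 13.6 CPM without. Pmvk was not called in controls, at 0.79 (SE 0.456, adjusted p = 0.265). Mvd had 7.72, 6.49, 0 and 6.65 CPM in macrophages of knockout mice after CCl4, against 15.8, 9.10, 7.99 and 5.12 CPM without. In control macrophages Mvd had 7.32, 7.15, 10.36 and 17.998 CPM after CCl4, against 3.31, 7.09, 9.36 and 2.55 CPM without. Mvd was at 0.73 (SE 0.530, adjusted p = 0.383) in controls, on few counts per library.

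Between genotypes, edgeR called 0 members in macrophages without CCl4, against 0.166% of all tested genes (0.0555% higher and 0.111% lower). Of the members, 9 passed an unadjusted p under 0.05, DESeq2 called 1 lower and limma voom 0, and the median was -0.43. The share of all tested genes at that unadjusted threshold was not counted, here or for the unadjusted counts below. For 7 members (Msmo1, Hsd17b7, Ebp, Sc5d, Scap, Insig2 and Stard4) all uninjured knockout values lay below all control values, against 5.06% of all tested genes, with Hsd17b7 at -1.70 (SE 0.404, adjusted p = 0.0957) and Insig2 at -1.14 (SE 0.317, adjusted p = 0.142). After CCl4, edgeR, DESeq2 and limma voom called 0, against 0.0647% of all tested genes (0.00925% higher and 0.0555% lower) by edgeR, with 3 members at an unadjusted p under 0.05. For the difference between CCl4 effects (knockout minus control) edgeR called 0 members, against 0.194% of all tested genes (0.0647% higher and 0.129% lower), DESeq2 called 2 higher and limma voom 0. Of the members, 10 passed an unadjusted p under 0.05, among them Hsd17b7 at 2.87 (SE 0.614, adjusted p = 0.0721) and Insig2 at 2.04 (SE 0.462, adjusted p = 0.078). Hepatocyte markers, given above, were highest in knockout mice 13 and 14 after CCl4. Without CCl4 they summed to 4035 to 14186 CPM in knockout macrophage libraries and 13289.7 to 15212 CPM in control ones. In uninjured macrophage libraries neutrophil markers (S100a8 and S100a9) summed to 192 to 282 CPM in knockouts and 57.9 to 90.9 CPM in controls. Stellate cell markers summed to 595 to 3298 CPM in knockouts and 184 to 533 CPM in controls. Monocyte markers summed to 137 to 231 CPM in knockouts and 28.5 to 91.6 CPM in controls. The part of all these cells in these values was not tested.

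**Figure D5:**
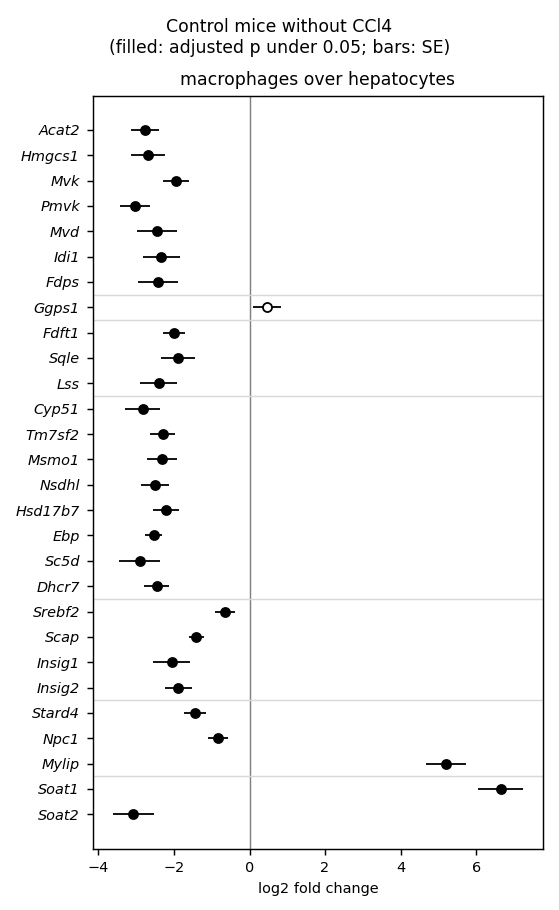
Log2 fold changes of macrophages over hepatocytes in control mice without CCl4, for the 28 members in pathway order; filled points have an adjusted p under 0.05 and bars are standard errors. The 18 enzymes are filled and left of 0, Mylip and Soat1 lie at 5.20 and 6.64, and Ggps1 is the open point.

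In control mice without CCl4, macrophages held less of the synthesis chain than hepatocytes and more Soat1 and Mylip. With CPM scaled over both cell types, 25 of 28 members were lower in macrophages and 2 were higher, where 28.5% of the 12052 genes tested were lower and 34.3% higher (62.8% in all). All 18 enzymes were among the lower, with log2 fold changes from -3.02 (Pmvk) to -1.90 (Sqle). The median of the 28 members was -2.30, against 0.14 over all tested genes. Ebp averaged 85.0 ± 8.50 CPM in macrophages and 496 ± 76.3 CPM in hepatocytes (SD, n = 4 and 6), at -2.54 (SE 0.224, adjusted p = 3.73e-11), and Sc5d averaged 121 ± 27.7 CPM in macrophages and 908 ± 202 CPM in hepatocytes, at -2.90 (SE 0.541, adjusted p = 3.23e-05). Soat1 averaged 232 ± 47.9 CPM in macrophages and 3.39 ± 3.90 CPM in hepatocytes, a 100.1-fold higher level at 6.64 (SE 0.589, adjusted p = 3.73e-11), and Mylip 264 ± 47.0 CPM in macrophages and 7.70 ± 9.03 CPM in hepatocytes, 36.7-fold higher at 5.20 (SE 0.525, adjusted p = 9.58e-10). Soat2 went the other way, with 1.52 ± 1.18 CPM in macrophages and 12.9 ± 7.50 CPM in hepatocytes, at -3.07 (SE 0.539, adjusted p = 6.81e-06). Among the regulators Srebf2 differed least, at -0.65 (SE 0.260, adjusted p = 0.0291), followed by Scap at -1.40 (SE 0.211, adjusted p = 1.13e-06), Insig2 at -1.88 (SE 0.368, adjusted p = 5.44e-05) and Insig1 at -2.06 (SE 0.492, adjusted p = 0.000599). The Srebf2 call was lost in 4 of 10 fits that left out 1 library. Ggps1 was not called, at 0.46 (SE 0.365, adjusted p = 0.281), and Npc1 was at -0.84 (SE 0.268, adjusted p = 0.00705). Hepatocyte markers took 13289.7 to 15212 CPM of these macrophage libraries and 63066 to 92842 CPM of the hepatocyte libraries. The part of their counts in the macrophage levels was not tested.

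The test of the difference between the CCl4 effects in controls (macrophages minus hepatocytes) called 2 members, both mevalonate enzymes, against 5% of the 12052 genes (1.1% higher and 3.9% lower). The median of all genes in this test was -0.20. Pmvk differed by 2.09 (SE 0.561, adjusted p = 0.0262) and Mvd by 2.88 (SE 0.795, adjusted p = 0.0302), as both fell in hepatocytes and were not called in macrophages. Without the 2 libraries of conflicting labels 0 were called, with Pmvk at 2.06 (adjusted p = 0.0822) and Mvd at 3.14 (adjusted p = 0.0637), and in the later file series alone 0 were called. Most of these mice gave both cell types. With the mouse as a block, over mice with both, Pmvk was not called, at 2.15 (adjusted p = 0.081), and Mvd was, at 3.38 (adjusted p = 0.0204). Fitted on the groups of this contrast only, Pmvk was called, at 2.03 (adjusted p = 0.0371), and Mvd was not, at 2.82 (adjusted p = 0.0738). Left out singly, 5 libraries of 17 ended the Pmvk call and 7 of 17 the Mvd call, with adjusted p up to 0.0678 and 0.0793. For 26 members no difference was called. For Tm7sf2 it was 0.77 (SE 0.548, adjusted p = 0.476) and for Msmo1 0.36 (SE 0.593, adjusted p = 0.793).

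In macrophages the other lists gave few calls, beside 6.39% of all tested genes called lower and 6.77% higher after CCl4 in controls. After CCl4 in controls 3 of 15 further SREBP targets fell and 0 rose (median -0.60): the phosphatidate phosphatase Lpin1 at -2.90 (SE 0.487, adjusted p = 0.001), Scd1 at -2.08 (SE 0.439, adjusted p = 0.00516) and Acss2 at -1.26 (SE 0.391, adjusted p = 0.0413). In knockouts 0 of 15 were called (median 0.04). Of 11 genes that use isoprenoids, Icmt, which methylates prenylated proteins, was at -1.46 (SE 0.388, adjusted p = 0.0188) and Coq2, of coenzyme Q synthesis, at -1.55 (SE 0.496, adjusted p = 0.0456) in controls, both lower, and 0 were called in knockouts. The processing, LXR and ester hydrolysis lists had 0 calls after CCl4 in either genotype. Against hepatocytes of uninjured controls, all 15 further SREBP targets were lower in macrophages (median -2.31), as were 7 of 11 processing genes (2 higher), 3 of 7 LXR genes (3 higher) and 5 of 11 isoprenoid users (1 higher), whereas 3 of 5 ester hydrolysis and export genes were higher (Npc2, Nceh1 and Stard3) and 0 lower, beside 28.5% of all tested genes lower and 34.3% higher. Of all these lists 1 gene differed between macrophages and hepatocytes in its CCl4 effect in controls, Aldoc at 2.07 (SE 0.599, adjusted p = 0.0384).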

How the data were processed

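RNA of hepatocytes and F4/80+ CD45+ macrophages was made into QuantSeq 3′ FWD libraries and sequenced as single 50-base reads, per the labels' protocols. The submitters' processing notes name Trimmomatic 0.39, HISAT2 2.1.0 and the build GRCm38 (mm10). What counted the reads, on which annotation and with which strand setting, is not given in the sources used here. The authors deposited raw counts per gene symbol, 1 table per cell type, and 0 columns of per-sample values were left unmapped. Replicates are separate mice, and the number in the titles marks the mouse. It pairs the macrophage and hepatocyte libraries of 15 mice, whose deviations from their group means correlated between -0.106 and 0.314, over 0.1 in 7 pairs.

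From these counts, genes were kept by filterByExpr and scaled by TMM, which left 9679 genes in hepatocytes, 10815 in macrophages and 12052 in a joint fit of both cell types. Tests were edgeR 4.0.16 quasi-likelihood tests in R 4.3.3 over all groups of a cell type, adjusted over all genes tested by Benjamini-Hochberg at 0.05. Shares of all tested genes were counted at the adjusted threshold and not at an unadjusted p under 0.05. Each standard error was taken as the size of the log2 fold change divided by the root of its F statistic, an approximation. A count of 3, the limit that 0 counts allow, equals 0.398 to 3.22 CPM per hepatocyte library and 0.585 to 5.03 CPM per macrophage library, and covers counting error only. No library repeated another of its group: the smallest chi-square per degree of freedom between 2 libraries was 5.76. The code was tested on simulated data.

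The alternatives tried were no filter, RLE factors, limma 3.58.1 (voom), DESeq2 1.42.0, fits of the contrast's groups only, the file series as a term, the later series only, the 2 libraries of conflicting genotype labels left out or moved, each library left out, the mouse as a block between cell types, and, added after seeing the data, marker sums as covariates. Values by library (lowest, median and highest in groups of more than 5) are given for the 2 called members of lowest p per role group in control hepatocytes after CCl4, for members called where at most 6 were, and for Srebf2, Scap, Insig1, Insig2 and Mylip. The members and lists were chosen with earlier results of these data known. Upstream sequences are from RefSeq (GRCm38.p6). Figures were drawn with matplotlib 3.10.9 in Python 3.11.15. A result of the list of SREBP processing genes is not reported here.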

Additional observations from a re-analysis of the deposited data

Results flagged for a closer look

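Of 190 groups of 4 to 6 libraries, 12 (6.32%) had a highest or lowest library whose gap to its nearest neighbour was past the 95% critical value of Dixon's test, which chance reaches in about 1 in 20 groups. In macrophages of knockout mice after CCl4, mouse 13 stood above the other 3 libraries for 3 synthesis enzymes: Idi1 was at 29.9 CPM, against 7.65 to 10.2 CPM in the others, Sqle at 29.0 CPM, against 9.75 to 12.98 CPM, and Lss at 26.1 CPM, against 1.33 to 2.88 CPM. This library also had the highest hepatocyte marker sum of the macrophage libraries, 32259 CPM, whose part in these values was not tested. In the same group, mouse 17 had 0 CPM of Mvd, against 6.49 to 7.72 CPM in the others. This library had the fewest counts of all (596380), and 0 counts there allow up to 5.03 CPM of total counts. Macrophages of control mouse 16 after CCl4 had 9.90 CPM of Msmo1, against 25.4 to 25.6 CPM in the others.

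In macrophages of control mice without CCl4, mouse 8 had 73.4 CPM of Cyp51 (34.1 to 38.6 CPM in the others), mouse 6 had 12.6 CPM of Nsdhl (33.1 to 36.2 CPM) and mouse 7 had 96.9 CPM of Scap (45.7 to 52.8 CPM). In hepatocytes of knockout mice without CCl4, mouse 4 had 361 CPM of Ebp (304 to 321 CPM in the others) and mouse 5 had 105 CPM of Dhcr7 (141 to 150 CPM). In hepatocytes of control mice without CCl4, mouse 19 had 31.5 CPM of Dhcr7 (96.7 to 136 CPM in the others) and mouse 9 had 21.5 CPM of Soat2 (3.50 to 10.2 CPM).

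The CCl4 effect in control mice was called different between macrophages and hepatocytes for Pmvk, by 2.09 on the log2 scale (adjusted p = 0.0262, edgeR quasi-likelihood test), and for Mvd, by 2.88 (adjusted p = 0.0302), both as macrophages minus hepatocytes. Neither was called in the later file series alone or without the libraries of conflicting labels. Pmvk was not called with the mouse as a block, nor Mvd with the contrast's groups only.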

How the results depend on the processing

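Counts of members called after CCl4 in knockout hepatocytes (21 lower) and between uninjured cell types (2 higher and 25 lower) stayed within 1.5 times of these values under each alternative run. Counts of 0 between genotypes after CCl4 in either cell type, and for the hepatocyte difference of CCl4 effects between genotypes, stayed at 0 under each alternative run. For CCl4 in control hepatocytes (1 higher, 21 lower), limma voom called 2 higher, and the later file series alone 0 higher and 5 lower. For uninjured knockout over control hepatocytes (4 higher, 1 lower), 2 were higher and 0 lower with the series as a term, and 0 and 0 in the later series alone and with the Kupffer cell marker covariate. For CCl4 in control macrophages (0 higher, 10 lower), 4 were lower in the later series alone, and 1 higher and 6 lower with the hepatocyte marker covariate. For CCl4 in knockout macrophages (0 called), 1 was lower without the filter, and 1 higher and 1 lower with the covariate. For uninjured knockout over control macrophages (0 called), 3 were lower without the filter, 1 by DESeq2, 3 with the contrast's groups only and 1 with the covariate. For the difference of CCl4 effects between genotypes in macrophages (0 called), 3 were higher without the filter and 2 by DESeq2. For the difference between cell types (2 higher, 0 lower), 1 was higher by voom and with the contrast's groups only, and 0 in the later series alone, without the libraries of conflicting labels and with them as knockouts; 1 was lower by DESeq2, 2 by voom and 1 with the series as a term. The cause of these changes was not tested.

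Leaving out each library in turn gave 18 to 21 members lower and 1 higher for CCl4 in control hepatocytes, 16 to 21 lower in knockout hepatocytes (16 without knockout mouse 14), and 2 to 6 higher and 0 to 1 lower for uninjured knockout hepatocytes (2 without knockout mouse 4, 6 without knockout mouse 21). It gave 5 to 11 lower for CCl4 in control macrophages, 0 to 1 higher and 0 to 1 lower in knockout macrophages, 0 to 2 higher for the macrophage difference between genotypes, 24 to 25 lower and 2 higher between cell types, and 0 to 2 higher and 0 to 2 lower for the difference between cell types in CCl4 effect. No single member's call reversed.

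With the mouse as a replicate block, 2 members were higher and 25 lower between cell types, and 1, Mvd, was higher for the difference in CCl4 effect, where Pmvk lost its call. The block changed no other call. Within 1 cell type no paired analysis was possible because each mouse is in 1 group.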
